A study of Mus musculus with 24 samples.

Results

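The immediate early genes measured here are 10 named genes: Egr1, Egr2, Fos, Fosb, Jun, Junb, Atf3, Ier2, Ier3 and Dusp1. They were chosen by name, as every probe whose gene name in the scanner files is one of the 10, and each had a single probe, so 10 of the 55681 probes on the array, which carry 34844 gene names, report them. The mice carried human PER1, and RNA came from their liver and white adipose tissue. The protein is either hPER1 S714G, a serine-to-glycine substitution (mutants), or hPER1 S714 (controls), so the controls carry the human gene too. All mice were male, 2 months old and of C57BL/6 background, and had spent 10 days on a light-dark cycle. Tissues were taken at ZT1 and ZT13, that is 1 and 13 hours after lights on. There were thus 8 groups, each with 3 one-colour Agilent arrays, and 24 arrays altogether. The labels used here do not give the promoter that drives the human gene, the number of founder lines, the fat depot, or whether a mouse gave both tissues.

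Immediate early genes are transcribed within minutes of a stimulus without new protein synthesis, because the factors that switch them on, the serum response factor with its ETS partners at CArG boxes and CREB at cyclic AMP response elements, are already in the cell and are activated by MAP kinases and protein kinase A. Most of the 10 encode transcription factors: the zinc finger proteins EGR1 and EGR2, the AP-1 subunits FOS, FOSB, JUN and JUNB, and the stress-induced repressor ATF3. DUSP1 is a phosphatase that removes phosphate from MAP kinases and so shuts off the signal that induced it, and it is also a target of the glucocorticoid receptor. IER2 is a small nuclear protein and IER3 a regulator of survival signalling. In liver, several of these genes respond to feeding, insulin and glucocorticoids, all of which vary over the day, and PER1 itself is a circadian repressor whose gene is induced by cyclic AMP and glucocorticoid signals.

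Promoter sequence was available from RefSeq (build GRCm38.p6, 250 bases before to 50 after each transcript start) for 8 of the 10 genes. None was available for Egr1 or Ier2. The bases before the start are shown for the genes on which the results below turn and for which a searched motif was found, with the matched motifs in capitals. They lie at chr17:26508473-26508722, minus strand (Dusp1), chr8:84978749-84978998, minus strand (Junb), chr1:191183334-191183583, minus strand (Atf3), chr12:85473640-85473889, plus strand (Fos), and chr10:67537620-67537869, plus strand (1 of the 5 Egr2 windows), and each is written 5′ to 3′ in the direction of transcription.
Dusp1: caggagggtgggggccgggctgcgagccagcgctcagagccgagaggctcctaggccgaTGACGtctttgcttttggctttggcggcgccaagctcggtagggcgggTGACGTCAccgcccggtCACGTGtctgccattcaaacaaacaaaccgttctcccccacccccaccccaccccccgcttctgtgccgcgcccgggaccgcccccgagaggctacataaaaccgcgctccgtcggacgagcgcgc
Junb: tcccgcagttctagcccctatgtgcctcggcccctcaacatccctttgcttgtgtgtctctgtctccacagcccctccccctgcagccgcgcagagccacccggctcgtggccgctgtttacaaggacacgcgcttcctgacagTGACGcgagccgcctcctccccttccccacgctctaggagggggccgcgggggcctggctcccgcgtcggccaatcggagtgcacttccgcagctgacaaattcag
Atf3: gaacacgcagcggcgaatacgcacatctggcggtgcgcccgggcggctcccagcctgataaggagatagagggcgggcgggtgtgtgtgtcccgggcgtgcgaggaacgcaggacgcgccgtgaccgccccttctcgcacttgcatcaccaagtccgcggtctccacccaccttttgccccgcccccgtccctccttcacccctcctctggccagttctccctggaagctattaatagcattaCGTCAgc
Fos: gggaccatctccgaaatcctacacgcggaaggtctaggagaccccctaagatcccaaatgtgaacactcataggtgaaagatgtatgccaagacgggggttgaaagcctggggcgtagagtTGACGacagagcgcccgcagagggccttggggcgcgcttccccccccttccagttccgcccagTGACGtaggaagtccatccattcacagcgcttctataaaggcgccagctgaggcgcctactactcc
Egr2: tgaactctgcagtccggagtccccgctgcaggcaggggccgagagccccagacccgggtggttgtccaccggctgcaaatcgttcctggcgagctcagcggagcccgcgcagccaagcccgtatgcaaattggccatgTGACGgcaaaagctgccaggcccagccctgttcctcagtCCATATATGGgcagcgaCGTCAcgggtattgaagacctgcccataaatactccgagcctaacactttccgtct
The motifs were searched on both strands of the whole 300-base windows. What follows therefore says nothing of Egr1 and Ier2, or of sites outside the windows. The full cyclic AMP response element TGACGTCA was found only in Dusp1, starting 143 bases before the start site, against 1.79% of the 32851 promoter windows of all genes. Its half-site TGACG, which the full element contains on both strands, was found in 6 of the 8 genes (Atf3, Dusp1, Egr2, Fos, Fosb and Junb), in 8 of the 12 windows of the 8 genes, and in 20.8% of all windows. The 12 windows had a median GC content of 60%, against 52.7% for all windows. The E-box CACGTG, the motif bound by the BMAL1 complex, occurred 126 bases before the Dusp1 start and in another Egr2 window, and in 7.15% of all windows. A CArG box was found only in Egr2, in 4 of its 5 windows, 3 of which overlap and share 1 site, and in 1.63% of all windows. The EGR site GCGGGGGCG occurred in Fosb and in 2.91% of all windows. The AP-1 site (TGAGTCA or TGACTCA), present in 5.20% of all windows, and the D-box TTATGTAA, present in 0.938%, were in none of the windows of these 8 genes, and no searched motif was found in those of Jun and Ier3. A match describes letters in a window and is not evidence of binding.

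Signals below are log2 processed signals minus the 75th percentile of the same array, so 0 is the level of a probe at that percentile, and SD and n refer to the arrays of a group. Levels are compared between arrays for the same probe and never between probes. Between 45.5% and 71.2% of the spots of an array were well above background, and precision is limited by there being 3 arrays a group. The arrays lay on 3 slides, which followed the groups closely: on slide 1 were the ZT1 controls of liver and adipose tissue with 2 ZT1 mutants of adipose tissue, on slide 2 the liver mutant ZT1 and adipose control ZT13 arrays with 1 adipose mutant ZT1 and 1 liver control ZT13 array, and on slide 3 the rest. Both genotypes shared a slide only in liver at ZT13 (slide 3) and in adipose tissue at ZT1 (slide 1). For a given genotype and tissue, the ZT1 and ZT13 arrays never lay together on a slide. The summed signal of 8 adipocyte markers was 456 to 685 times the 75th percentile signal in adipose arrays and 9.19 to 15.9 times in liver arrays. That of 10 hepatocyte markers was 1163 to 2384 in liver and 123 to 702 in adipose tissue, where all 10 were above background in 3 of the 4 groups.

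Across the comparisons, the clearest difference between genotypes was a lower Dusp1 signal in mutant liver at ZT13. Dusp1 was also lower at ZT1, but there the genotypes shared no slide and the call was lost with slide as a fixed block. The largest difference between times was a lower Egr1 signal at ZT13 in control liver. Of the 10 genes, 8 were bright enough in liver to be tested. Fos and Egr2 were well above background on 1 of 12 liver arrays each, both in the mutant ZT13 group, and were not tested there. Passing means an adjusted p under 0.05 in the limma fit over all genes of the tissue. In liver at ZT1, 2 of 8 genes passed, where 46.8% of all 21844 genes tested in liver passed. Both (Dusp1 and Egr1) were lower in mutants, as were 29.9% of all genes. In liver at ZT13, 1 of 8 passed (Dusp1), against 3.01% of all genes in either direction and 1.48% that were lower. From ZT1 to ZT13 in control liver, 3 of 8 passed, against 52.5% of all genes. Dusp1 and Jun were higher at ZT13, as were 19.6% of all genes, and Egr1 was lower, as were 32.9%. In mutant liver 3 of 8 passed, against 2% of all genes. Atf3 and Jun were higher at ZT13, as were 0.98% of all genes, and Junb was lower, as were 1.02%. The time change differed between genotypes for 2 of 8 (Egr1 and Atf3), against 32.1% of all genes in either direction and 20.1% in theirs. In the comparison of genotypes at ZT1, of times in controls and in the interaction, the share of the 8 genes that passed was thus under the share of all genes.

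The 3 arrays of a group did not overlap with those of the other group for 4 of 8 genes between genotypes at ZT1 in liver (53.1% of all genes) and for 3 of 8 at ZT13 (29.2%). Between times they did not overlap for 4 of 8 in control liver (55.9%) and 7 of 8 in mutant liver (30.2%). In adipose tissue, where all 10 genes were tested, the corresponding numbers were 0 of 10 at ZT1 (6.73%), 2 of 10 at ZT13 (25.1%), 4 of 10 in controls (51.5%) and 3 of 10 in mutants (26.3%). The median log2 difference of the tested genes was -0.28 between genotypes in liver at ZT1, -0.24 at ZT13, and 0.67 and 0.49 between times in control and mutant liver, beside medians over all genes of -0.21, 0.03, -0.21 and 0.03. Quantile normalization moved the median of all genes from -0.21 to -0.06 in liver at ZT1 and between times in control liver, and from -0.30 to -0.07 between times in control adipose tissue, so small differences in those comparisons are best read against these shifts.

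**Figure D1:**
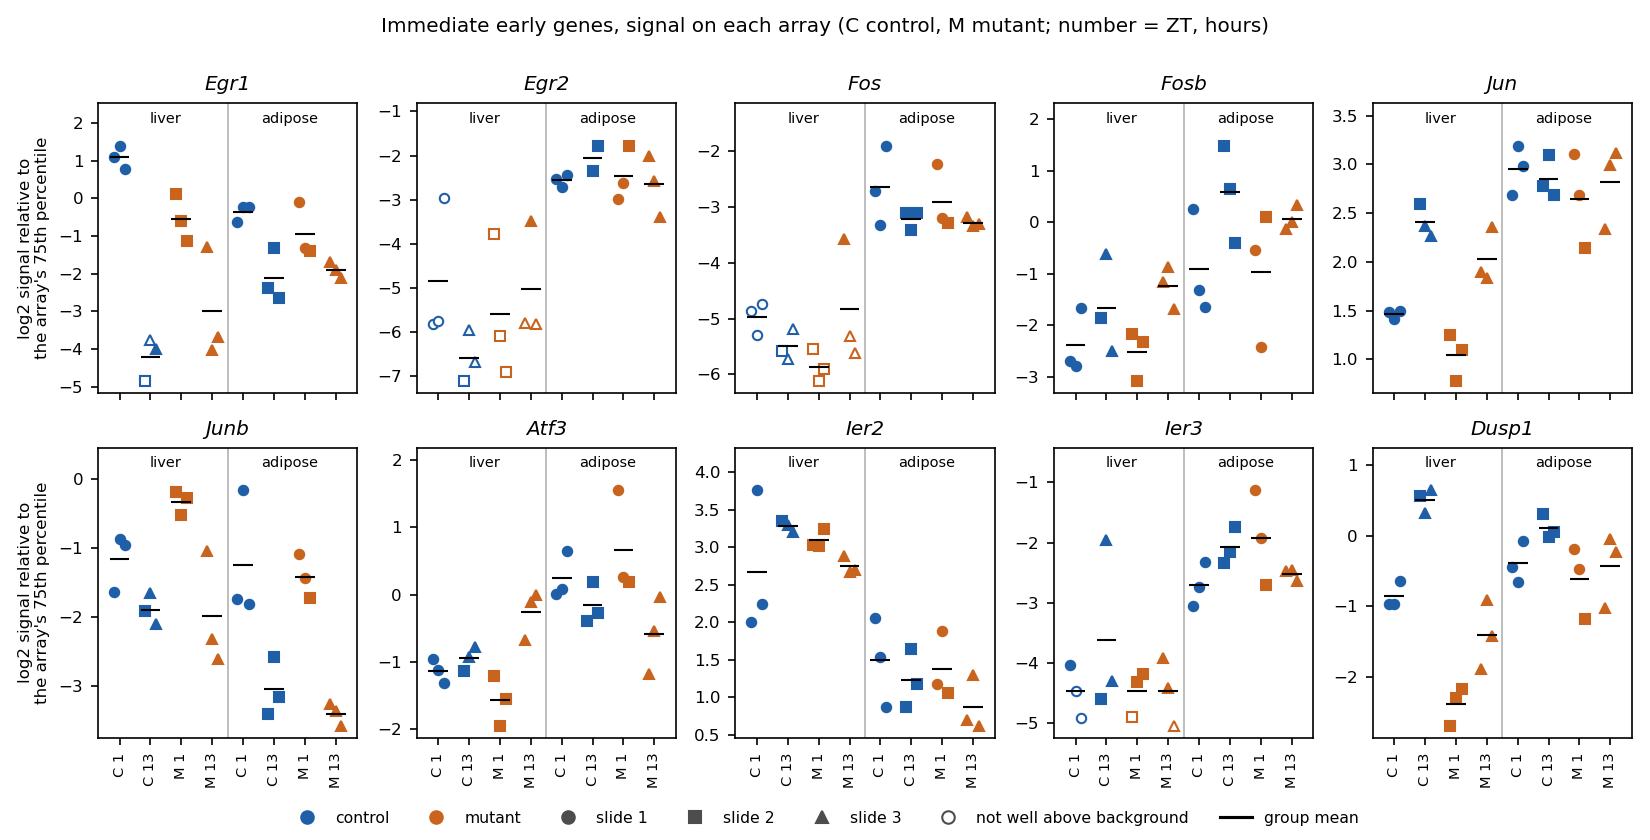
Signal of each of the 10 genes on every array, as log2 relative to the array's 75th percentile (vertical axes, own scale per gene), in the 8 groups (horizontal axis; C control, M mutant, 1 and 13 the ZT in hours), with colour for genotype, marker shape for slide, open markers for a probe not well above background and bars for group means. Dusp1 in liver lies lowest in the mutant groups, Egr1 in control liver goes from near 1 at ZT1 to near -4 at ZT13, and Fos and Egr2 are open on all but 1 liver array each.

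Dusp1 (probe at chr17:26642526-26642536, build mm9, the interval the files list) encodes the MAP kinase phosphatase that ends the signal inducing these genes. Its signal in control liver was -0.97, -0.97 and -0.64 at ZT1 and 0.56, 0.32 and 0.64 at ZT13. In mutant liver it was -2.70, -2.30 and -2.18 at ZT1 and -1.89, -0.91 and -1.43 at ZT13. Every mutant array lay below every control array of the same time, and the mutant arrays at ZT13 (mean -1.41 ± 0.492, SD, n = 3) stood nearer to the control arrays at ZT1 (-0.86 ± 0.188, SD, n = 3) than to those at ZT13 (0.50 ± 0.166, SD, n = 3). Dusp1 was 2.89-fold lower in mutants at ZT1, a log2 difference of -1.53 ± 0.239 (SE, adjusted p = 6.8e-04). It was 3.77-fold lower at ZT13, a log2 difference of -1.91 ± 0.239 (SE, adjusted p = 0.0020). These are tissue RNA levels, in which fewer cells of a type and less RNA per cell cannot be told apart. Within slide 3, where both genotypes lay at ZT13, the difference was -1.89 (adjusted p = 0.0355), and with slide as a fixed block it was also -1.89 (adjusted p = 0.0019). At ZT1 no slide held both genotypes of liver, and the slide block left -0.68 (adjusted p = 0.734). Summed cell type markers differed between the genotypes in liver at ZT1 too: hepatocyte markers were 2140 to 2384 in controls and 1505 to 1615 in mutants (4 of 10 lower in mutants and none higher past the threshold). Endothelium markers were 18.1 to 22.9 and 15.1 to 15.6 (of 5 tested, 2 higher and 2 lower in mutants past the threshold). T cell markers were 0.858 to 1.02 and 0.641 to 0.653 (2 lower and none higher). Adipocyte markers were 9.19 to 11.1 and 14.1 to 15.9 (of 6 tested, 3 higher and 2 lower). Members of the endothelium and adipocyte lists thus went in both directions, which their sums do not show. The part of these cell types in the lower Dusp1 and Egr1 at ZT1 was not tested.

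Dusp1 rose from ZT1 to ZT13 in control liver, by 1.37 ± 0.239 on the log2 scale (SE, adjusted p = 8.5e-04). In mutant liver it stood 0.99 ± 0.239 higher at ZT13, with no overlap of the arrays, and missed the threshold (adjusted p = 0.0651). Without mutant ZT13 replicate 1 it was 1.23 (adjusted p = 0.0460). The time changes of the genotypes differed by -0.38 (95% interval -1.12 to 0.36, adjusted p = 0.40), so a difference between them was not detectable. With slide as a fixed block the rise in controls was 2.27 (adjusted p = 0.0823). In adipose tissue Dusp1 ranged from -1.18 to 0.31 over the 12 arrays. Its mutant minus control difference there was -0.22 at ZT1 (95% interval -0.92 to 0.48, adjusted p = 0.961) and -0.55 at ZT13 (95% interval -1.25 to 0.15), neither past the threshold.

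Egr1, a zinc finger factor induced by growth factor and feeding signals, ranged over 6.26 log2 units in liver, against 3.34 for Dusp1. In control liver it was 1.11, 1.40 and 0.78 at ZT1 and -4.86, -3.77 and -3.99 at ZT13. At ZT13 it was well above background on only 1 of these 3 control arrays, so its low level there is in part that of the background. The log2 difference was -5.30 ± 0.612 (SE, adjusted p = 8.2e-05), and it was -5.27 with slide as a fixed block (adjusted p = 0.0416). In mutant liver Egr1 was 0.12, -0.61 and -1.14 at ZT1 and -1.28, -4.04 and -3.69 at ZT13. All 3 mutant arrays at ZT1 lay below all 3 controls, and the mean difference was -1.64 ± 0.612 (SE, 3.11-fold lower, adjusted p = 0.0462). The call was lost without any 1 of the 3 controls or of mutant replicates 2 and 3 (differences of -1.79 to -1.34, adjusted p of 0.0648 to 0.145), and it was lost with slide as a fixed block (-0.94, adjusted p = 0.855).

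At ZT13 the Egr1 values of the genotypes overlapped, and mutants stood 1.21 ± 0.612 higher (SE, adjusted p = 0.403). Without mutant ZT13 replicate 1 they stood 0.34 higher (adjusted p = 0.911). From ZT1 to ZT13 the mutant signal was lower by 2.46 ± 0.612 on the log2 scale (SE), which missed the threshold (adjusted p = 0.0717). The time change differed between genotypes by 2.84 ± 0.866 (SE, adjusted p = 0.0285), being smaller in mutants. With slide as a fixed block this difference was 1.82 (adjusted p = 0.633). It was 2.52 to 2.84 and missed the threshold (adjusted p of 0.0518 to 0.0671) without control ZT1 replicate 1, control ZT13 replicate 1, or mutant ZT1 replicate 2 or 3. Much of the spread in mutants at ZT13 came from replicate 1, and without that array the mutant time change was -3.32 (adjusted p = 0.0071). The difference between the time changes of the genotypes was then 1.98, the lowest of 12 refits that each left out 1 liver array.

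In adipose tissue Egr1 was -0.63, -0.24 and -0.24 in controls at ZT1 and -2.39, -1.33 and -2.64 at ZT13. In mutants it was -0.11, -1.32 and -1.40 at ZT1 and -1.70, -1.92 and -2.12 at ZT13. All ZT13 arrays lay below all ZT1 arrays of the same genotype. The fall passed in controls (-1.75 ± 0.393, SE, 3.36-fold, adjusted p = 0.0232) and not in mutants (-0.97 ± 0.393, SE, adjusted p = 0.153). The difference between those changes was 0.78 (95% interval -0.44 to 2.00, adjusted p = 0.889). In the fit with slide as a fixed block the control change was -1.06 (adjusted p = 0.804). It was -1.68 to -1.49 (adjusted p of 0.0503 to 0.0840) without control ZT1 replicate 2 or 3 or control ZT13 replicate 1 or 3, each of which ended the call.

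Egr2 (chr10:67004798-67004857, mm9), the relative of Egr1 known from myelinating cells and T cells, was well above background on all 11 adipose arrays that gave a usable spot and on 1 liver array. In adipose tissue it was -2.54, -2.71 and -2.43 in controls at ZT1 and -2.34 and -1.78 at ZT13, where the spot of replicate 1 was flagged as an outlier and dropped from the fit. Mutants had -2.98, -2.63 and -1.78 at ZT1 and -2.01, -2.57 and -3.39 at ZT13. The groups lay within the spread of one another, and no difference in adipose tissue passed (log2 differences between genotypes or times of -0.60 to 0.50).

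Among the AP-1 subunits, Fos (chr12:86817900-86817959, mm9) forms heterodimers with JUN proteins and is the classic marker of recent stimulation. Its probe was printed in 10 spots per array, which shows how well a dim signal was measured. In adipose tissue, 112 of 114 usable Fos spots were well above background, with a median SD between the spots of an array of 0.128. In liver only 16 of 113 were, with a median SD of 0.375, and 10 of the 16 came from a single array, mutant ZT13 replicate 1. On that array the 10 spots averaged -3.58, against -5.31 and -5.62 on the other mutant ZT13 arrays, and no other liver array exceeded -4.75. Adipose Fos was -2.71, -3.32 and -1.91 in controls at ZT1 and -3.10, -3.41 and -3.11 at ZT13. In mutants it was -2.24, -3.21 and -3.3 at ZT1 and -3.19, -3.35 and -3.31 at ZT13. The highest values were single ZT1 arrays of each genotype, and no adipose difference passed (log2 differences between genotypes or times of -0.56 to -0.07).

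**Figure D2:**
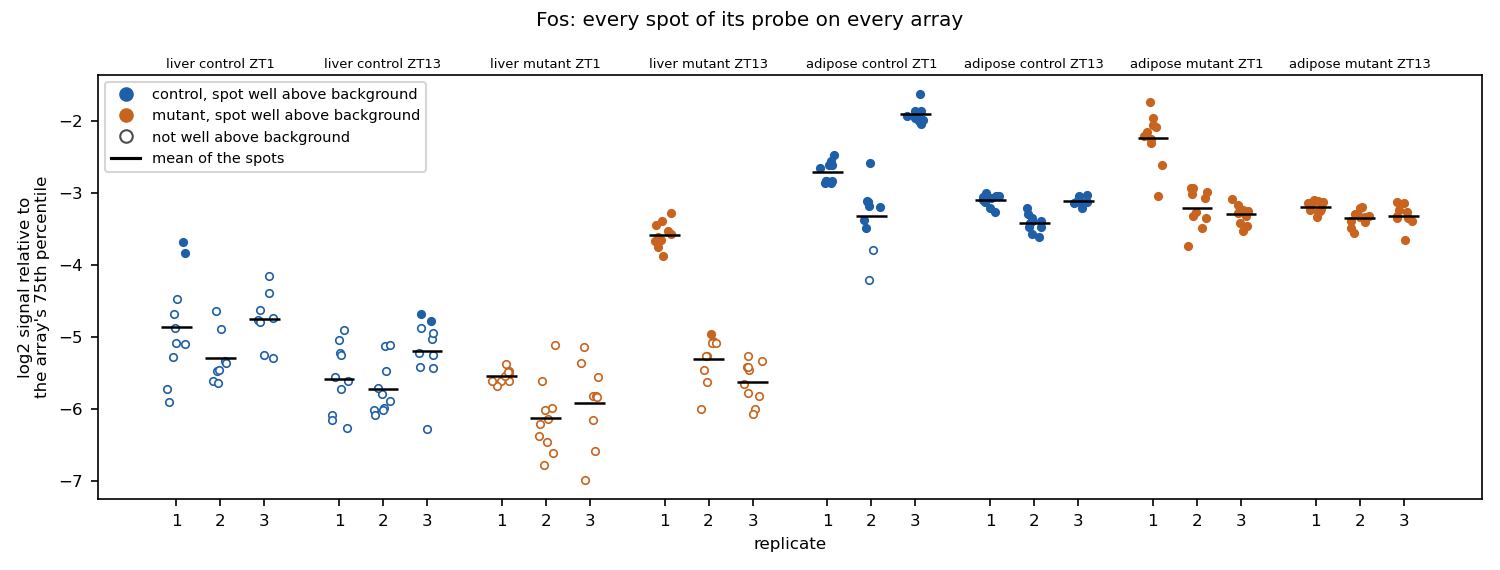
Every usable spot of the Fos probe on every array, as log2 signal relative to the array's 75th percentile (vertical axis), by group and replicate (horizontal axis), with filled points for spots well above background and bars for the mean of the spots. Adipose spots are filled except for 2, while liver spots are mostly open apart from mutant ZT13 replicate 1, whose mean of -3.58 comes near the adipose arrays.

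Mutant ZT13 replicate 1 of the liver also stood apart for Egr1 (-1.28 against -4.04 and -3.69) and for Junb (-1.05 against -2.31 and -2.60). Among the 8 tested genes, 2 were over 1 log2 above the next array of the group on it, as were 4 of 39 other early response genes tested in liver (10.3%) and 0.928% of all genes. The corresponding shares of all genes were 0.285% and 0.193% for replicates 2 and 3. Other arrays also stood out among the 10 genes. On liver control ZT13 replicate 2 it was 2 of 8, with 0 of 39 other early response genes and 1.23% of all genes. On adipose mutant ZT1 replicate 1 it was 2 of 10, with 3 of 41 other early response genes and 4.35% of all genes. On mutant ZT13 replicate 1 of the liver the summed hepatocyte markers were 2069 and the fibroblast and stellate cell markers 103, against 1981 and 1163, and 81.5 and 65.0, on the other 2, and the part of these cell types in its signal was not tested.

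Fosb (chr7:19888168-19888227, mm9), a FOS relative, was well above background on all 24 arrays and varied widely within groups. Its liver signal was -2.69, -2.78 and -1.67 in controls at ZT1 and -1.86, -0.62 and -2.50 at ZT13, and -2.17, -3.09 and -2.32 in mutants at ZT1 and -1.16, -0.86 and -1.69 at ZT13. Only the mutant times did not overlap, with a log2 difference of 1.29 ± 0.462 (SE) that did not pass (adjusted p = 0.213). In adipose tissue the mutants at ZT1 alone spanned -2.42 to 0.09, and no difference passed. The largest was 1.48 ± 0.675 (SE) between times in controls (adjusted p = 0.127).

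Jun (chr4:94716928-94716987, mm9) encodes the AP-1 subunit that can also pair with itself, and was among the steadiest of these genes within groups. In control liver it was 1.48, 1.41 and 1.5 at ZT1 and 2.60, 2.37 and 2.27 at ZT13. In mutant liver it was 1.25, 0.77 and 1.10 at ZT1 and 1.90, 1.83 and 2.36 at ZT13. Every ZT13 array lay above every ZT1 array of either genotype. Jun rose 1.93-fold in controls (log2 0.95 ± 0.181, SE, adjusted p = 0.0014) and 1.98-fold in mutants (0.99 ± 0.181, SE, adjusted p = 0.0197). The changes differed by 0.04 (95% interval -0.52 to 0.60, adjusted p = 0.913). In the fit with slide as a fixed block the rises were 1.88 in controls (adjusted p = 0.073) and 1.27 in mutants (adjusted p = 0.302), and both calls were lost. The mutant call was also lost without mutant ZT1 replicate 2 or 3 or any 1 of the mutant ZT13 arrays (0.82 to 1.09, adjusted p of 0.0505 to 0.0904). In adipose tissue Jun ranged only from 2.15 to 3.19, with time differences of -0.10 in controls and 0.17 in mutants.

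Junb (chr8:87501881-87501940, mm9), a JUN relative that often opposes JUN at AP-1 sites, was lower at ZT13 where Jun was higher. In control liver it was -1.64, -0.86 and -0.94 at ZT1 and -1.91, -1.65 and -2.10 at ZT13. In mutant liver it was -0.18, -0.52 and -0.27 at ZT1 and -1.05, -2.31 and -2.60 at ZT13. The mutant ZT1 arrays were the highest of the 4 liver groups. Junb fell from ZT1 to ZT13 in mutant liver by 1.66 ± 0.352 on the log2 scale (SE, adjusted p = 0.0370). The change in control liver was -0.74 ± 0.352 (SE, adjusted p = 0.0965), and the difference between the changes did not pass (-0.92, 95% interval -2.01 to 0.17, adjusted p = 0.171). Without mutant ZT13 replicate 1 that difference was -1.39 (adjusted p = 0.0188). The mutant call was lost with slide as a fixed block (-1.70, adjusted p = 0.644), with the replicate number as a block (adjusted p = 0.0713), and without any 1 of the mutant ZT1 arrays or mutant ZT13 replicate 2 or 3 (-1.76 to -1.35, adjusted p of 0.0950 to 0.147).

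In adipose tissue Junb was -1.74, -0.16 and -1.81 in controls at ZT1 and -3.40, -2.58 and -3.15 at ZT13. In mutants it was -1.08, -1.43 and -1.73 at ZT1 and -3.25, -3.36 and -3.58 at ZT13. The times did not overlap in either genotype. Junb fell by 1.81 ± 0.405 in controls (SE, 3.5-fold, adjusted p = 0.0229) and by 1.98 ± 0.405 in mutants (SE, 3.95-fold, adjusted p = 0.0337). Fitted with slide as a fixed block, the changes were -1.34 (adjusted p = 0.612) and -1.70 (adjusted p = 0.981). The control call was lost without control ZT13 replicate 1 (-1.63, adjusted p = 0.0807) or 3 (-1.75, adjusted p = 0.0766). The mutant call was lost without mutant ZT1 replicate 1 or 2 or any 1 of the mutant ZT13 arrays (-2.05 to -1.82, adjusted p of 0.0954 to 0.135).

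In adipose tissue the time changes of Egr1 and Junb in controls were the only ones of these 10 genes that passed, against 15.8% of all 23384 genes tested there, and both fell, as did 9.85% of all genes. That of Junb was the only one in mutants, against 1.98% of all genes, and 1.63% that fell. The summed signal of 4 T cell markers was 1.38 to 2.50 at ZT1 and 0.533 to 1.03 at ZT13 in control adipose tissue, and 1.09 to 2.73 and 0.507 to 0.610 in mutants, with all 4 markers well above background on every array. That of 8 macrophage markers was 173 to 255 and 132 to 178 in controls and 207 to 251 and 126 to 173 in mutants, so that the control ranges overlapped. That of 6 fibroblast and stellate cell markers was 279 to 301 and 189 to 222 in controls and 244 to 358 and 182 to 228 in mutants. Neutrophil markers were 1.52 to 2.21 and 1.07 to 1.13 in controls and 1.54 to 1.82 and 0.952 to 1.03 in mutants. The 10 hepatocyte markers summed to 195 to 702 and 138 to 279 in controls and 123 to 252 and 145 to 196 in mutants. Their median log2 difference between times was -1.76 in controls and 0.31 in mutants, and none passed in either. Whether these cell types had a part in the Junb and Egr1 changes was not tested. By genotype, none of the 10 passed at ZT1 (0% of all genes passed in the limma fit, and 1 of the 10, Ier3, had an unadjusted p under 0.05), at ZT13 (0.0428% of all genes passed, and none of the 10 had an unadjusted p under 0.05) or in the interaction (0.107% of all genes passed, and Ier3 alone had an unadjusted p under 0.05).

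**Figure D3:**
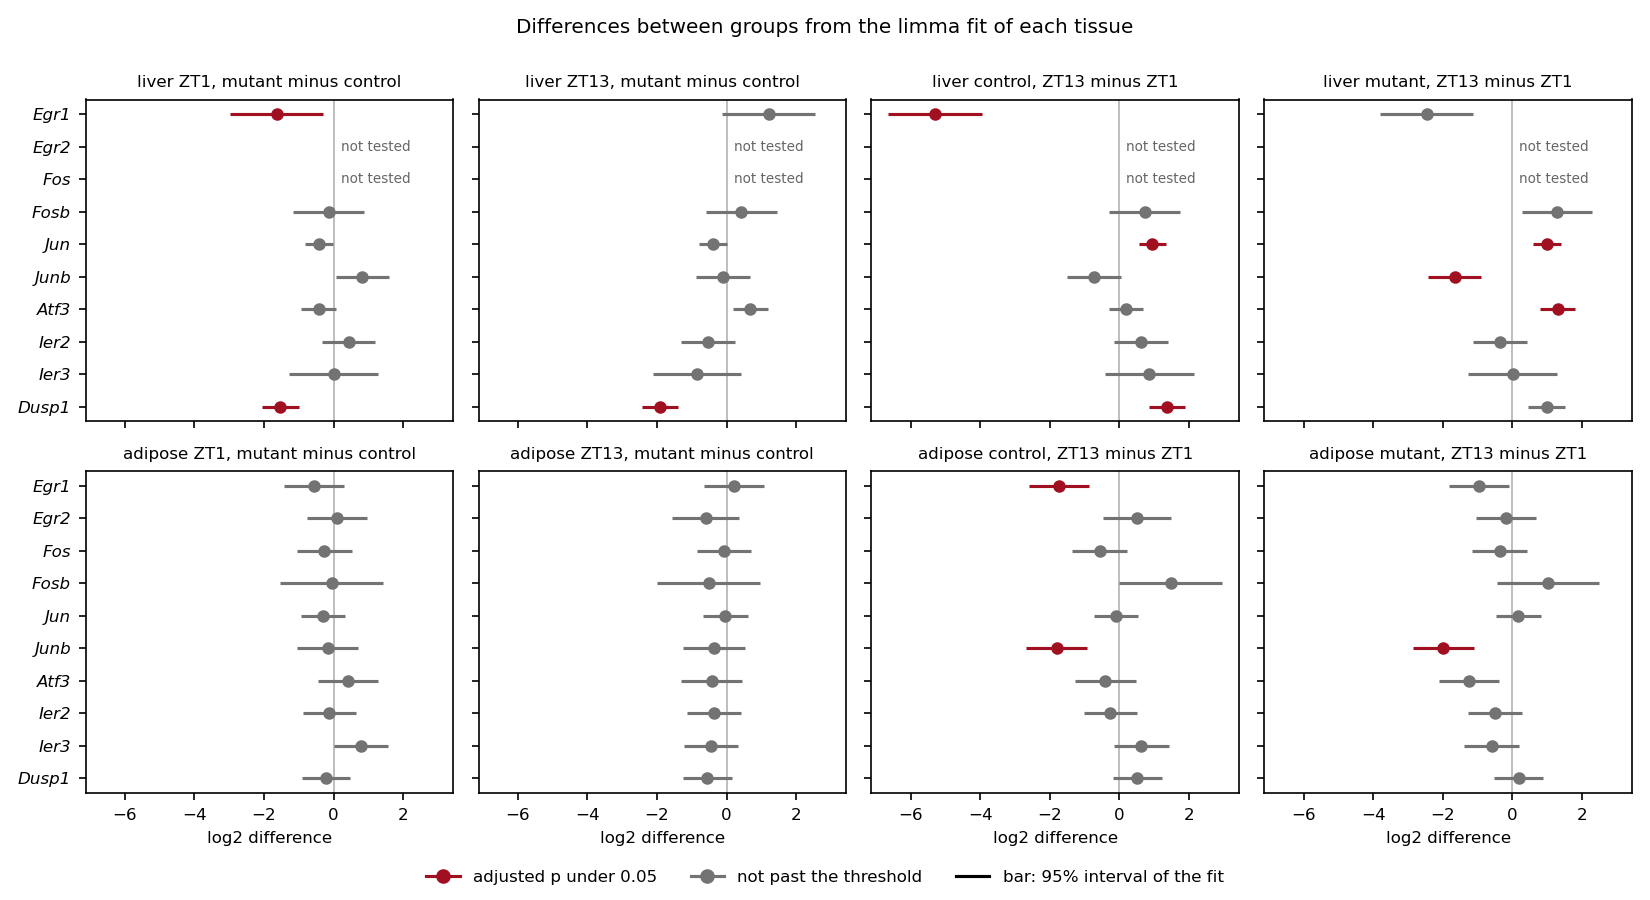
Log2 difference between groups (horizontal axes) for each of the 10 genes (vertical axes) in the genotype and time comparisons of liver (upper row) and adipose tissue (lower row), with points for the estimate, bars for the 95% interval of the limma fit and red for an adjusted p under 0.05. Dusp1 is red in both liver genotype panels, and no point is red in the adipose genotype panels.

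Atf3 (chr1:192994547-192994606, mm9), a stress-induced member of the ATF family, was the other gene whose time change differed between genotypes in liver. It was -0.96, -1.12 and -1.31 in controls at ZT1 and -1.13, -0.93 and -0.78 at ZT13. In mutants it was -1.20, -1.95 and -1.54 at ZT1 and -0.68, -0.11 and -0.01 at ZT13. The control times overlapped while the mutant ZT13 arrays were above all other liver arrays. Atf3 rose in mutants by 1.30 ± 0.227 (SE, 2.46-fold, adjusted p = 0.0157), against 0.19 ± 0.227 in controls (SE, adjusted p = 0.506). The mutant change was 1.02 with slide as a fixed block (adjusted p = 0.829), and without mutant ZT1 replicate 2 or 3 or mutant ZT13 replicate 2 or 3 it was 1.11 to 1.31 and missed the threshold (adjusted p of 0.0590 to 0.0834). The difference of these changes was 1.11 ± 0.321 (SE, adjusted p = 0.0226). It was 0.84 after quantile normalization (adjusted p = 0.0686), 0.30 with slide as a fixed block (adjusted p = 0.938), and 0.92 to 1.04 (adjusted p of 0.0501 to 0.0576) without control ZT13 replicate 1, mutant ZT1 replicate 2, or mutant ZT13 replicate 2 or 3. At ZT13 alone the mutant arrays were 0.68 ± 0.227 higher (SE), which did not pass (adjusted p = 0.157).

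In adipose tissue Atf3 was 0.01, 0.09 and 0.64 in controls at ZT1, -0.39, 0.19 and -0.27 in controls at ZT13, 1.55, 0.27 and 0.18 in mutants at ZT1, and -1.18, -0.54 and -0.04 in mutants at ZT13. The mutant times did not overlap, with a difference of -1.25 ± 0.396 (SE, adjusted p = 0.105). Without mutant ZT1 replicate 3, the 1 array of that group on slide 2, the change was -1.49 (adjusted p = 0.0188). Without the same array, Egr1 (-1.20, adjusted p = 0.0439) and Ier3 (-0.99, adjusted p = 0.0243) also passed in mutant adipose tissue, in addition to Junb. In that refit 9934 of 24053 genes passed, against 464 of 23384 with all arrays. Without mutant ZT1 replicate 1 the changes were smaller and did not pass: -0.81 for Atf3 (adjusted p = 0.329), -0.55 for Egr1 (adjusted p = 0.466) and -0.20 for Ier3 (adjusted p = 0.768).

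Ier2 (chr8:87186214-87186273, mm9) encodes a small nuclear protein of the immediate early response. In liver it was 2.00, 3.75 and 2.24 in controls at ZT1 and 3.34, 3.29 and 3.21 at ZT13, and 3.03, 3.02 and 3.24 in mutants at ZT1 and 2.88, 2.67 and 2.69 at ZT13. Apart from control ZT1 replicate 2, the control ZT1 arrays were the lowest in liver. No difference passed with all arrays. Without that array, mutants were 0.98 higher at ZT1 (adjusted p = 4.8e-04), controls rose by 1.16 from ZT1 to ZT13 (adjusted p = 1.4e-04), and the interaction was -1.51 (adjusted p = 4.5e-04). In adipose tissue Ier2 ranged from 0.62 to 2.06 and its differences from -0.50 to -0.12.

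Ier3 (chr17:35959528-35959587, mm9), which acts in cell survival, was dim in liver, well above background on 8 of 12 arrays (1 of 3 in controls and 2 of 3 in mutants at ZT1, 3 of 3 and 2 of 3 at ZT13), at -5.06 to -1.95. Its highest liver array, control ZT13 replicate 2, stood at -1.95 against at most -3.93 on the other 11, and no liver difference passed (-0.85 to 0.85). In adipose tissue Ier3 was well above background on all 12 arrays, at -3.06, -2.74 and -2.32 in controls at ZT1, -2.34, -2.15 and -1.74 in controls at ZT13, -1.13, -1.93 and -2.71 in mutants at ZT1, and -2.48, -2.45 and -2.64 in mutants at ZT13. The mutants at ZT1 held both the highest value and a value near the lowest, and the interaction of -1.23 ± 0.504 (SE) did not pass (adjusted p = 0.667).

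White adipose tissue and liver differed in most of these genes. Averaged over the 4 genotype and time groups, 9 of 10 passed, where 75.3% of all 24314 genes tested over both tissues passed. In adipose tissue 7 were higher, as were 33.2% of all genes, and 2 were lower, as were 42%. The median of the 10 was 1.05 and that of all genes -0.14. Fos was higher in adipose tissue by 2.27 ± 0.209 (log2, SE, adjusted p = 5.5e-09) and Egr2 by 3.08 ± 0.407 (log2, SE, adjusted p = 1.5e-06), both against a liver level mostly below background. Fos and Egr2 entered this fit only through adipose groups, as no liver group had them well above background on every array. Their p-values are therefore not independent of the filter. A bound that sets the adipose mean against, per array, the higher of the liver value and the lowest signal well above background put Fos at least 2.14-fold higher at ZT1 and 2.57-fold higher at ZT13 in controls and at least 2.60-fold higher at ZT1 in mutants. The same bound for Egr2 was at least 2.26-fold, 5.70-fold and 3.55-fold. In each of the 4 groups the 2 tissues did not overlap for Fos or Egr2.

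Ier3 was 1.95 ± 0.257 higher in adipose tissue (log2, SE, adjusted p = 1.0e-06, against a liver probe above background on 8 of 12 arrays), Fosb 1.65 ± 0.311 (3.13-fold), Jun 1.08 ± 0.123 (2.12-fold), Atf3 1.02 ± 0.168 (2.03-fold) and Dusp1 0.71 ± 0.145 (1.63-fold), with adjusted p from 1.3e-07 for Jun to 2.0e-04 for Dusp1. Fos, Egr2, Ier3, Fosb and Jun were higher in adipose tissue in all 4 groups. Ier2 was 1.71 ± 0.184 lower (log2, SE, 3.26-fold, adjusted p = 6.3e-08) and Junb 0.94 ± 0.20 lower (1.91-fold, adjusted p = 3.1e-04), and both were lower in all 4 groups. For Junb the difference was only -0.09 in controls at ZT1, where the tissues overlapped. Within single slides, Fos, Egr2, Ier3 and Jun passed on each of the 3 slides, and Fosb, Ier2 and Junb on 2 of 3. On slide 1 their differences were 1.48 (adjusted p = 0.0593), -1.17 (adjusted p = 0.103) and -0.09 (adjusted p = 0.893). Atf3 passed on slides 1 (1.38, adjusted p = 0.0044) and 2 (1.36, adjusted p = 0.0041) and was -0.32 on slide 3 (adjusted p = 0.388). Dusp1 passed on slide 3 (0.97, adjusted p = 0.0371), not on slide 1 (0.47, adjusted p = 0.168) or 2 (0.39, adjusted p = 0.105). The pairs of groups within a slide were the ZT1 controls on slide 1 and the ZT13 mutants on slide 3, each a single genotype and time. Ier3 was well above background on 1 of 3 liver arrays of slide 1 and 2 of 3 of slide 3. It thus entered those 2 fits only through the adipose group, as Fos and Egr2 did on every slide. Their p-values within slides are therefore not independent of the filter.

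For 3 genes the tissue that was higher depended on the group. Egr1 was 1.47 lower in adipose tissue than in liver in controls at ZT1 and 2.09 higher in controls at ZT13, with no overlap in either. Its mean difference over the 4 groups was 0.33 ± 0.275 (log2, SE, adjusted p = 0.285), and without liver mutant ZT13 replicate 1 it was 0.54 (adjusted p = 0.0229). Dusp1 was 0.39 lower in adipose tissue in controls at ZT13 and 1.78 higher in mutants at ZT1, with no overlap in either. Atf3 was 2.23 higher in mutants at ZT1, without overlap, and 0.32 lower in mutants at ZT13, where the tissues overlapped. The tissues also differ in the cell types they hold, as the marker sums above show, and the part of those in these differences was not tested.

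**Figure D4:**
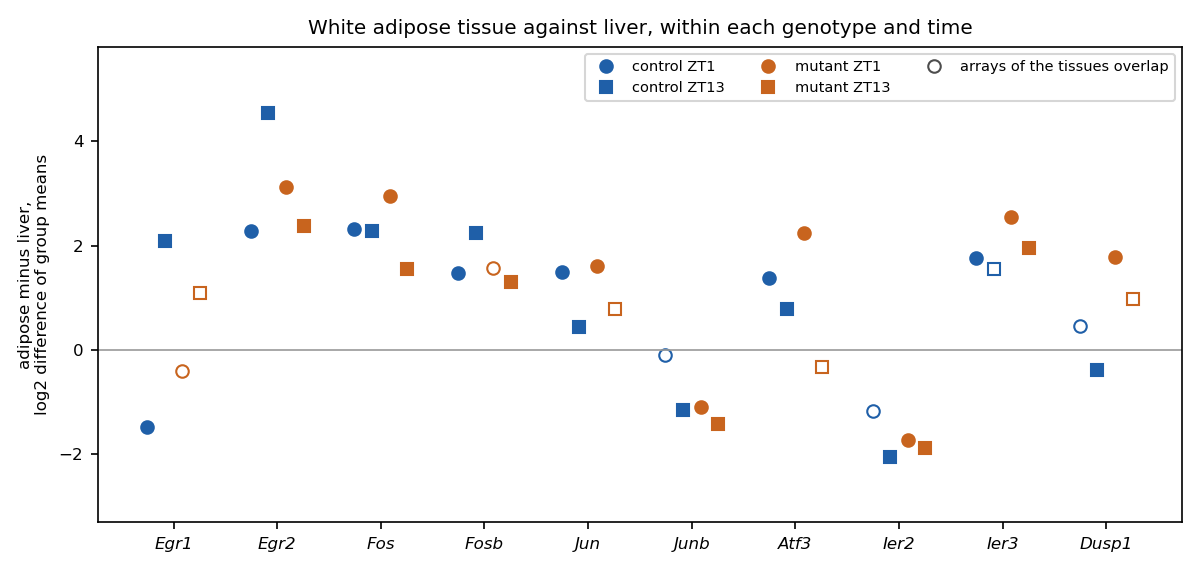
Difference between the mean signals of white adipose tissue and liver (vertical axis, log2) for each of the 10 genes, with a marker for each genotype and time and open markers where the 3 adipose and 3 liver arrays overlap. Fos and Egr2 stay above 1.5 in all 4 groups, Ier2 and Junb lie below 0 in all 4, and Egr1 goes from -1.47 in controls at ZT1 to 2.09 in controls at ZT13.

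The 10 genes did not move as a block. Over the 12 liver arrays, 24 of the 45 pairs of genes correlated positively, with a median Pearson r of 0.11, and over the adipose arrays 25 of 45 did, with a median of 0.09. After the group means were removed, the medians were -0.02 and 0.03. The liver pairs include those with Fos and Egr2, each well above background on 1 of 12 liver arrays, so these pairs mostly reflect background. Egr1 and Junb correlated at 0.70 in liver and 0.85 in adipose tissue, and at 0.74 and 0.53 with group means removed. The 0.74 depends heavily on liver mutant ZT13 replicate 1, which stood well above its group for both genes (Egr1 -1.28, Junb -1.05). Jun and Junb correlated at -0.80 in liver and at -0.22 there with group means removed, and at 0.16 and 0.46 in adipose tissue. Against the mean of the other tested members, Egr1 (-0.65) and Junb (-0.58) ran opposite in liver, while in adipose tissue Atf3 (0.74) and Egr1 (0.50) followed it most closely. The genes outside the 10 most like the mean of the members were Bfar, Ndfip1, Ins1, Fam188b2 and Psip1 in liver (r of 0.89 to 0.83 over 12 arrays, 8 members) and Adcy3, Smox, Klrb1b, Ints9 and Tlr13 in adipose tissue (0.95 to 0.91 over 12 arrays, 10 members). The arrays share slides and groups, so these correlations are descriptions.

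Of 46 other early response genes, 39 were tested in liver and 42 in adipose tissue. In liver at ZT1, 22 passed, where 46.8% of all genes did: 11 were higher and 11 lower in mutants, among them the nuclear receptor Nr4a2 (2.14 ± 0.202, log2, SE) and the small MAF factor Maff (2.44 ± 0.383) above, and the activity-regulated factor Npas4 (-1.25 ± 0.185) and the antiproliferative gene Btg2 (-1.42 ± 0.215) below. At ZT13, 3 passed (3.01% of all genes): the polo-like kinase Plk2 was higher (0.82 ± 0.192), and Maff (-2.06 ± 0.383) and Plk3 (-2.26 ± 0.466) were lower in mutants. In control liver 13 rose and 8 fell from ZT1 to ZT13 (52.5% of all genes passed), among them the salt-inducible kinase Sik1 (3.04 ± 0.282), Nr4a2 (2.08 ± 0.202), the EGF receptor inhibitor Errfi1 (2.33 ± 0.265) and the FOS relative Fosl2 (-1.75 ± 0.208). In mutant liver the matrix gene Ccn2 rose (1.42 ± 0.232) and Maff fell (-2.63 ± 0.383), where 2% of all genes passed. In the interaction 7 were higher and 11 lower (32.1% of all genes passed), and Maff was at -4.50 ± 0.541. In control adipose tissue 9 rose and 1 fell from ZT1 to ZT13 (15.8% of all genes passed), among them the small GTPase gene Rhob (1.92 ± 0.257), Sik1 (2.21 ± 0.346), Ccn2 (1.63 ± 0.270) and Arc (1.53 ± 0.302). In mutant adipose tissue Rhob rose (1.26 ± 0.257) and the phosphatase gene Dusp2 fell (-1.33 ± 0.274), where 1.98% of all genes passed. Between tissues, 23 of 42 were higher and 9 lower in adipose tissue (33.2% and 42% of all genes), with a median of 0.59 against -0.14 for all genes.

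Of 7 other dual-specificity phosphatase genes, 6 were tested in liver, where 2 were lower in mutants at ZT1 (29.9% of all genes were) and 1 was higher at ZT13. Dusp10, which acts on the stress kinases JNK and p38, was lower in mutant liver at ZT1 (-1.25 ± 0.277, log2, SE) and higher at ZT13 (1.26 ± 0.277, adjusted p = 0.0346), and it fell by 2.14 ± 0.277 from ZT1 to ZT13 in control liver. Dusp3 was also lower at ZT1 (-0.65 ± 0.185). Of 36 genes of MAP kinase, SRF and CREB signalling, 35 were tested in liver. At ZT1, 6 were higher and 4 lower in mutants, against 46.8% of all genes that passed in either direction, among them the kinase genes Map2k1 (1.08 ± 0.177) and Braf (0.89 ± 0.146) above and the CREB coactivator Crtc3 (-1.38 ± 0.185) below. At ZT13 only the signalling inhibitor Spry1 passed (1.0 ± 0.178 higher, adjusted p = 0.0118). In control liver 8 rose and 5 fell over time (52.5% of all genes passed). Of the other bZIP and ATF family genes, Ddit3, a stress-induced partner of ATF factors, rose from ZT1 to ZT13 in the liver of both genotypes (log2 1.06 ± 0.189 in controls and 1.04 ± 0.189 in mutants).

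Dusp1 is a known glucocorticoid target, and 11 other glucocorticoid-responsive genes were measured beside it. In liver at ZT13, none was higher and 3 were lower in mutants: Sds, which encodes serine dehydratase (-1.72 ± 0.215, log2, SE), the zinc finger gene Zbtb16 (-2.08 ± 0.333) and the chaperone gene Fkbp5 (-1.13 ± 0.258), with a list median of -0.39 against 0.03 for all genes, of which 1.48% were lower. At ZT1, where 46.8% of all genes passed, 1 was higher (the kinase gene Sgk1, 2.01 ± 0.446) and 3 were lower (Lcn2, Cdkn1a and Klf9). From ZT1 to ZT13, 6 rose and 3 fell in control liver (19.6% and 32.9% of all genes), including Tsc22d3 (1.5 ± 0.197), Fkbp5 (1.69 ± 0.258) and Sgk1 (2.32 ± 0.446). In mutant liver Tsc22d3 rose (1.10 ± 0.197) and Sds fell (-1.06 ± 0.215), where 2% of all genes passed. In the interaction 2 were higher and 3 lower, where 32.1% of all genes passed. None of the 11 passed by genotype in adipose tissue in the limma fit at either time (4 at ZT1 and 1 at ZT13 had an unadjusted p under 0.05). Whether glucocorticoid signals had a part in the lower Dusp1 was not tested. For scale, 11 of 16 core clock genes passed by genotype in liver at ZT13, 5 higher and 6 lower in mutants (3.01% of all genes passed). In adipose tissue at ZT13 it was 3 of 16 (0.0428% of all genes). At ZT1, 9 were higher and 5 lower in liver (46.8% of all genes). None passed in adipose tissue at ZT1, although 14 of 16 had an unadjusted p under 0.05 in the limma fit and their median log2 difference was 1.35. Genes that did not pass there may thus still differ.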

How the data were processed

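The labels describe 24 one-colour Agilent arrays, 3 for each tissue, genotype and time, and groups were taken from them. They do not say whether the 3 samples of a group are separate mice, so p-values measure only the spread between these samples. The deposited scanner files give, per the file headers, intensities of spots read by Agilent Feature Extraction 10.7.3.1. That software subtracted background and spatial trend, did not scale arrays to one another, and set other columns of flags. The values in the authors' deposited matrix are on a log2 scale and equalled log2 of that processed signal minus 1 constant per array, to within 0.01, and it was used as an alternative. The column medians lay between -3.92 and -3.03 and the 75th percentiles at about 0, so that it nearly repeats the scaling used here.

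Control spots and outlier spots were left out, spots of a probe were averaged, and log2 signals were set relative to the 75th percentile of their array. The brightest probe of each gene was tested in a tissue if every array of some group there had it well above background. Positions of probes come from the array design (mm9), and no annotation of exons was used. The model was limma's lmFit with eBayes (version 3.58.1, R 4.3.3, two-sided, 4 groups of a tissue, or 8 groups for the comparison of tissues), and every adjusted p follows Benjamini-Hochberg across the genes tested (threshold 0.05). The fit was tested on simulated data. Alternatives were quantile normalization, normexp background, the deposited matrix, other filters, slide as a fixed or random block, single slides, the replicate number as a block, and leaving out arrays. Tables were handled with data.table (version 1.17.8), Python 3.11.15, pandas 2.3.3 and numpy 2.4.6 and drawn with matplotlib 3.10.9.

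All 10 genes are named in every comparison. From each other list, up to 4 genes with the lowest p among those past the threshold are named per comparison, except 1 gene that is not reported here. The 10 genes, the lists and the tests were chosen with earlier results of these data known.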

Additional observations from a re-analysis of the deposited data

Results flagged for a closer look

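In liver the change from ZT1 to ZT13 differed between genotypes for Egr1 and for Atf3, by a test of that difference itself (limma). The mutant change minus the control change was 2.84 for Egr1 on the log2 scale (adjusted p = 0.0285), from a change of -5.30 in controls to -2.46 in mutants. For Atf3 it was 1.11 (adjusted p = 0.0226), from 0.19 in controls to 1.30 in mutants. With slide as a fixed block in a fit of all 24 arrays the differences were 1.82 for Egr1 (adjusted p = 0.633) and 0.30 for Atf3 (adjusted p = 0.938). Every group had 3 arrays, too few for a test of single outlying arrays. Leaving out 1 liver array at a time gave 1.98 to 3.36 for Egr1 and 0.92 to 1.32 for Atf3. Each passed in 8 of these 12 refits. The lowest Egr1 value came without mutant ZT13 replicate 1.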

How the results depend on the processing

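Over 1967 refits of the 100 differences reported for the 10 genes, 23 differences had passed, and in their 567 refits 493 kept direction and call, 73 missed the threshold and 1 reversed. Of 1400 refits of the others, 31 passed in the direction of the main fit and 1 passed in the opposite direction. Changes of sign that missed the threshold were not counted among these. They did occur: leaving out 1 array moved the genotype difference of Junb in liver at ZT13 between -0.57 and 0.21. The lower Dusp1 in mutant liver at ZT13, the fall of Egr1 in control liver, and the higher Fos, Egr2, Ier3 and Jun in adipose tissue kept direction and call in every refit run. Fos and Egr2 entered the refits between tissues only through adipose groups, except where no filter on dim probes was used. The same held for Ier3 in the fits within slide 1 and within slide 3. The reversals that were counted were within single slides, a choice made after seeing the data, where 1 genotype and time stands in place of the mean of 4 groups: Atf3, adipose minus liver, was -0.32 on slide 3 (mutants at ZT13, adjusted p = 0.388), and Egr1 was -1.47 on slide 1 (controls at ZT1, adjusted p = 0.0033). The numbers of the 10 genes that passed moved as follows, and the cause was not tested. With slide as a fixed block, in a fit that also takes in all 24 arrays, they were 0 in liver at ZT1, 1 in control liver over time, 0 in mutant liver, 0 in the liver interaction, and 0 in control and 0 in mutant adipose tissue (of all 24314 genes, 76 passed in liver at ZT1). With slide as a random block they were 5 in liver at ZT1, 6 in mutant liver, and 0 in each genotype of adipose tissue, where of all genes 12994 and 1894 of 21844 passed in liver and 11 (controls) and 1 (mutants) of 23384 in adipose tissue. Quantile normalization gave 4 in liver at ZT1, 5 in control liver, 1 in the interaction and 0 in mutant adipose tissue. Without a filter on dim probes, 1 passed in liver at ZT1, 0 in mutant liver and 0 in the interaction. With probes well above background on every array, 1 passed in liver at ZT1 and 1 in the interaction. The authors' table gave 1 in liver at ZT1, and normexp gave 5 in mutant liver. The fit of all 24 arrays gave 1 in the interaction and 2 in mutant adipose tissue, where 4 passed without the adipose arrays of title letter C (9968 of 24712 genes). Leaving out 1 array gave 1 to 2 in liver at ZT1, 0 to 4 in mutant liver, 0 to 3 in the interaction, 0 to 2 in control and 0 to 4 in mutant adipose tissue.

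Of 12 liver and adipose pairs of the same group and replicate number, 2 had deviations correlated over 0.1 (range -0.48 to 0.16). Different tissues of a mouse need not deviate alike, so these correlations cannot decide whether replicate numbers pair the samples. With the replicate number as a block, 0 passed in mutant adipose tissue (Junb -1.98, adjusted p = 0.0528), and Junb in mutant liver was lost. Fos, Egr2 and Ier3 in liver, and Egr1 in control liver at ZT13, were limited by signal near background.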
